A study of Mus musculus musculus x Mus musculus castaneus with 8 samples.

Results

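The genes described here build, read or maintain H3K9 methylation, the repressive mark on lysine 9 of histone H3 that marks heterochromatin. They were taken by name: the methyltransferases Suv39h1, Suv39h2, Setdb1, Ehmt1 and Ehmt2, the Setdb1 corepressor Trim28, the HP1 proteins Cbx1, Cbx3 and Cbx5, and the chromatin remodeller Atrx. These 10 genes are a small part of the 24421 genes in the deposited count tables, and all 10 had enough reads to be tested for total expression. Reads that could be assigned to 1 parental allele were sufficient for a test in 9 of the 10.

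Methylated H3K9 is bound by HP1 proteins, which recruit further methyltransferases and so help the mark to spread and persist. SUV39H1 and SUV39H2 write trimethylation at pericentric repeats, SETDB1 writes it at retroelements to which KRAB zinc finger proteins and TRIM28 bring it, and the EHMT1-EHMT2 pair (GLP and G9a) writes mono- and dimethylation in euchromatin. ATRX deposits histone H3.3 at repeats together with DAXX, and it also binds heterochromatin. H3K9 methylation and DNA methylation are often found together, and both occur on the inactive X chromosome of female cells.

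The cells were tail fibroblasts of a female F1 hybrid of Mus musculus musculus and Mus musculus castaneus, so a read over a site that differs between the parents can be traced to its mus or its cas copy. The 4 groups, with 2 libraries each, were untreated cells, cells given 5azadC (5-aza-2'-deoxycytidine, a cytidine analogue that blocks DNA methyltransferases), cells given VX680 (an inhibitor of the Aurora kinases, which act in mitosis), and cells given both drugs. All groups carried the same volume of DMSO, including the untreated one, drugs were added 24 h after plating, and RNA was taken from the 15 cm plates after 72 h of growth. Drug concentrations are not given in the sources used here. The study's title places the experiment in the search for drugs that reactivate genes on the inactive X. The labels do not say whether the 2 libraries of a group came from separate cultures, so the p-values below measure only the spread between libraries, which may be technical.

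The libraries held 6908503 to 11169532 reads assigned to genes, 26.1% to 26.9% of them assigned to an allele. Fibroblast markers were present throughout, but their summed level (8 genes, as CPM, a gene's reads scaled to library size) was 25987 to 28693 in untreated libraries, 16416 to 19095 with 5azadC, 12938 to 13462 with VX680 and 11056 to 11159 with both. The collagen genes Col1a1 (13990 CPM in untreated cells, 1884 with both) and Col1a2 (9583 and 1575) made up most of the sum in untreated cells, while 2 of the 7 markers tested, Vim and Thy1, rose in all 3 comparisons with untreated cells; these 4 were named after their values were seen. Markers of keratinocytes (4 genes, summed CPM 1.34 to 2.77), leukocytes (14.5 to 25.5), endothelium (0.627 to 5.83), skeletal muscle (18.5 to 46.5) and melanocytes (26.5 to 42.9) stayed far lower. Cd3e among the 4 leukocyte markers and Tyr among the 4 melanocyte markers had no read in any group. The other markers of these 2 lists were each read in at least 1 group. Endothelium markers were lowest in untreated libraries (0.627 to 0.965) and highest with VX680 (3.85 to 5.83). Skeletal muscle markers were also lowest in untreated libraries (18.5 to 21.1) and highest with 5azadC (41.1 to 46.5). Of 13 proliferation genes, 0 were called higher and 6 lower with 5azadC, 1 higher and 6 lower with VX680, and 3 higher and 3 lower with both. Of all 12643 genes tested, 22.6% were called higher and 19.6% lower with 5azadC, 23.8% and 22.4% with VX680, and 28.4% and 27.3% with both. The part of the marker and proliferation changes in the results below was not tested. In such bulk RNA a lower level can mean fewer cells that express a gene or less RNA per cell, and these cannot be told apart.

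Levels between genes were compared per length, as RPKM, which is CPM divided by gene length. In untreated cells Ehmt2 had the highest mean RPKM, 120.6 ± 4.8 (SD, n = 2), followed by Trim28 at 90.6 ± 0.058. Cbx1 (39.9 ± 3.7) and Ehmt1 (34.8 ± 0.65) came next, then Cbx5 (27.9 ± 1.8). Suv39h1 (19.9 ± 0.47), Atrx (19.8 ± 1.2) and Setdb1 (18.0 ± 1.5) had nearly the same RPKM and lay within their spread. Suv39h2 (3.36 ± 0.10) and Cbx3 (3.17 ± 0.44) were lowest and also lay within their spread of each other. Ehmt2, Trim28 and Cbx1 held the top 3 places, in that order, in all 4 groups, and Suv39h2 and Cbx3 the last places.

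**Figure D1:**
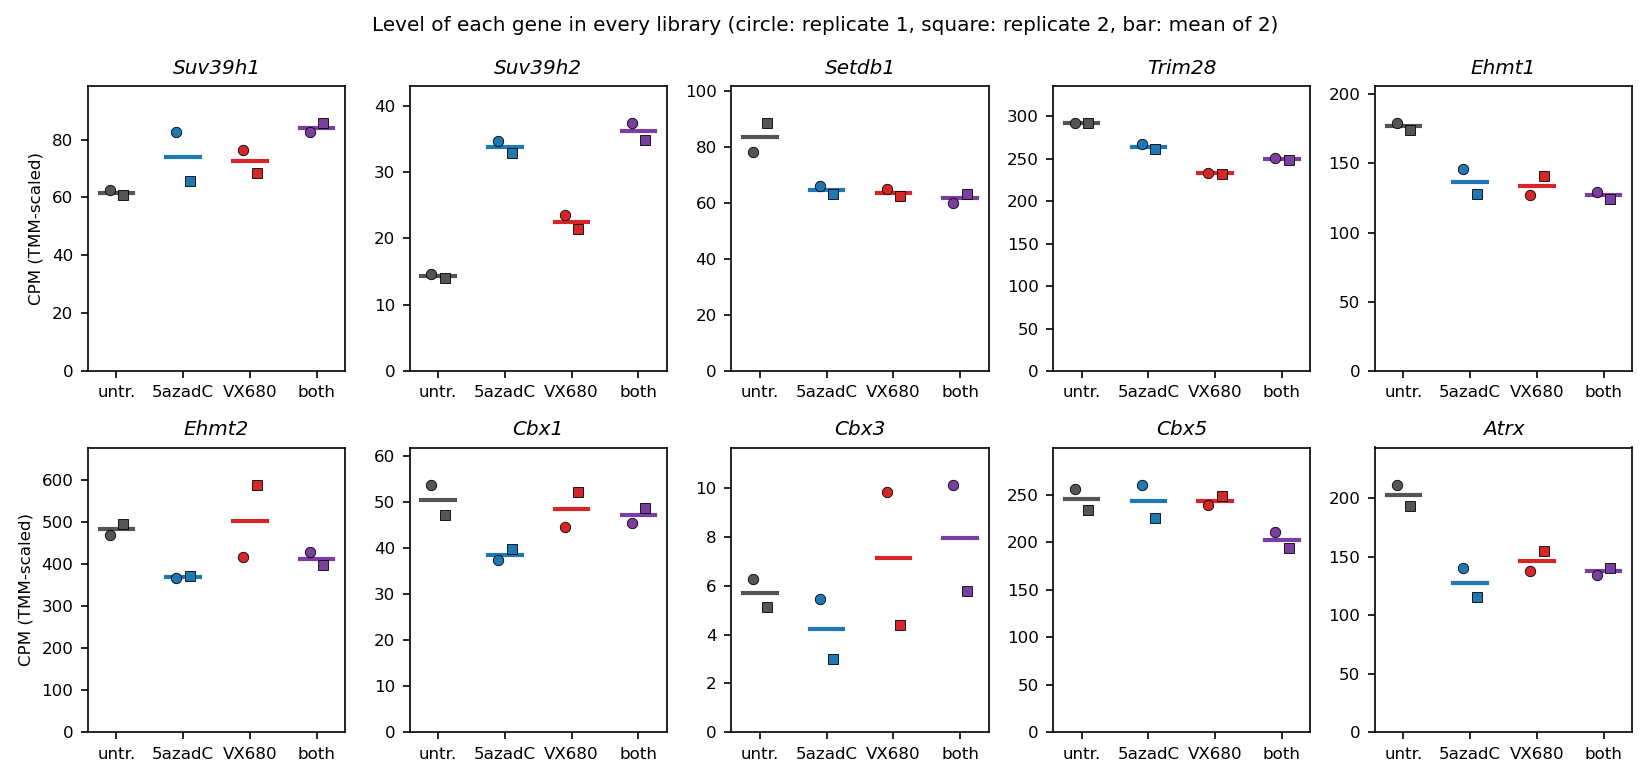
Level of each gene in each library. Each panel is 1 gene, the y axis is CPM on a linear scale that starts at 0, points are the 2 libraries of a group and bars their mean. Suv39h2 is lowest in the untreated libraries (14.1 and 14.7 CPM) and highest with both drugs (34.9 and 37.4). The Atrx, Ehmt1, Setdb1 and Trim28 points of every treated library lie below both untreated ones.

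With 5azadC, 1 of the 10 genes was called higher than in untreated cells (adjusted p under 0.05) and 5 were called lower, against 42.2% of all 12643 genes tested called in either direction, 22.6% higher and 19.6% lower. With VX680, 1 gene was called higher and 4 lower, where 46.1% of all genes were called (23.8% higher, 22.4% lower). With both drugs, 2 genes were called higher and 5 lower, where 55.7% of all genes were called (28.4% higher, 27.3% lower). The median log2 fold change of the 10 genes was -0.37, -0.04 and -0.22 in these 3 comparisons, beside 0.00, 0.01 and 0.01 over all genes tested. All 3 comparisons use the same untreated libraries. Without VX680 replicate 1 the count with VX680 was 1 higher and 2 lower. On the authors' normalized signal the median of all genes shifted upward by 0.11 with VX680 and 0.10 with both drugs, and by 0.11 with both drugs against 5azadC and -0.11 with 5azadC against VX680; the share of higher genes among all called with VX680 then moved from 51.5% to 63.0%.

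**Figure D2:**
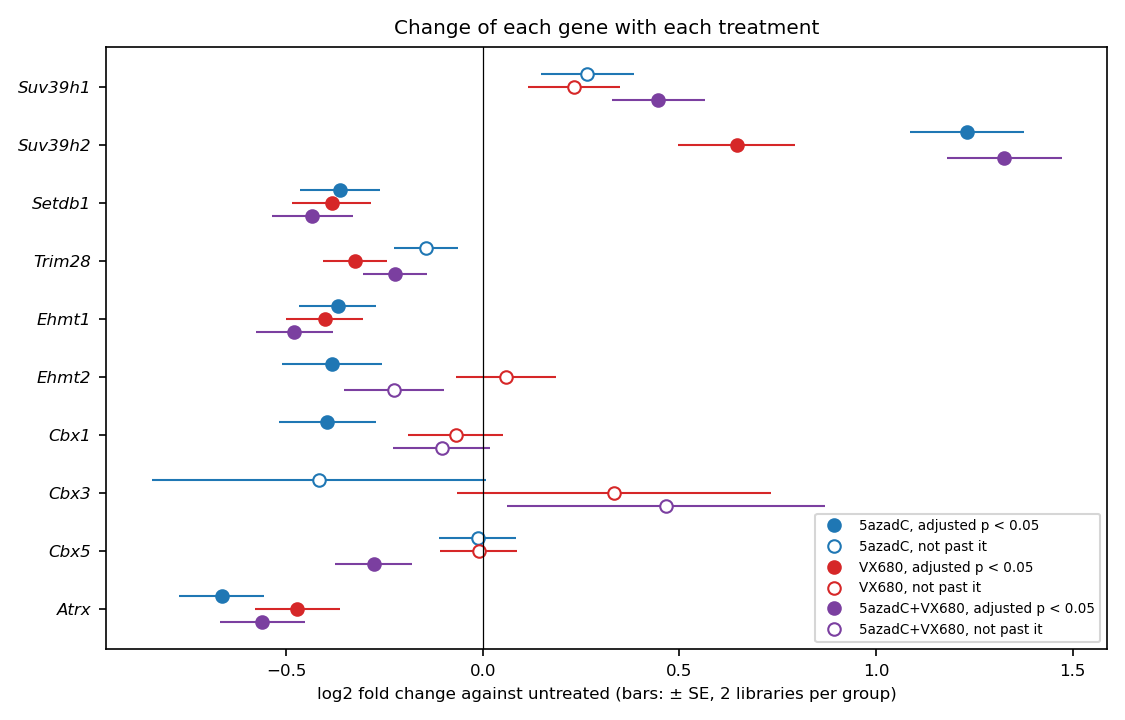
Change of each gene with each treatment. The x axis is the log2 fold change against untreated cells (2 libraries per group), bars are ± SE, filled points have an adjusted p under 0.05 and open points do not. Suv39h2 (1.23, 0.65 and 1.33) and Suv39h1 (0.27, 0.23 and 0.45) stand to the right in all 3 comparisons. Setdb1, Trim28, Ehmt1, Cbx1, Cbx5 and Atrx stand to the left in all 3, and of these only Setdb1, Ehmt1 and Atrx have filled points in all 3.

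Of the 2 SUV39H enzymes, Suv39h2 rose in every treatment and Suv39h1 rose with both drugs. Suv39h2 had 14.7 and 14.1 CPM in the untreated libraries, 34.8 and 32.9 with 5azadC, 23.6 and 21.4 with VX680, and 37.4 and 34.9 with both. No treated library overlapped the untreated ones, and the VX680 libraries lay between the untreated ones and those that received 5azadC. The log2 fold change against untreated cells was 1.23 ± 0.15 (SE) with 5azadC (adjusted p = 1.85e-05), 0.65 ± 0.15 with VX680 (adjusted p = 0.00288) and 1.33 ± 0.15 with both (adjusted p = 4.37e-06). Suv39h2 also differed between the drugs, being 0.59 ± 0.14 higher on the log2 scale with 5azadC than with VX680 (adjusted p = 0.0111). Adding 5azadC to VX680 raised it by 0.68 ± 0.14 (adjusted p = 0.0109), while adding VX680 to 5azadC gave 0.09 ± 0.14 (adjusted p = 0.655). Both calls were lost when a library of the VX680 group was left out, while the differences kept their sign. The difference between the drugs was 0.66 without VX680 replicate 1 and 0.53 without VX680 replicate 2. Adding 5azadC to VX680 gave 0.75 and 0.62 without VX680 replicate 1 or 2. It gave 0.63 and 0.73 without combined replicate 1 or 2, where the call was lost as well.

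Suv39h1 had 62.7 and 60.7 CPM in untreated cells, 82.5 and 65.7 with 5azadC, 76.5 and 68.5 with VX680, and 82.7 and 85.7 with both drugs. Every treated library lay above both untreated ones, and the 5azadC libraries lay on either side of the VX680 ones. In log2 fold change this was 0.27 ± 0.12 with 5azadC (adjusted p = 0.0868), 0.23 ± 0.12 with VX680 (adjusted p = 0.122) and 0.45 ± 0.12 with both (adjusted p = 0.00548), so the combined treatment alone passed the threshold. Without 5azadC replicate 2, the 5azadC comparison passed as well (adjusted p = 0.00777), and on the authors' signal the VX680 comparison did (0.34, adjusted p = 0.0446). The RPKM of Suv39h1 was 5.87 and 5.93 times that of Suv39h2 in the untreated libraries, 3.26 and 2.74 times with 5azadC, 4.46 and 4.39 times with VX680, and 3.04 and 3.38 times with both. Suv39h1 thus kept the higher level of the pair in all 8 libraries, by a smaller ratio in each treated one.

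Setdb1 fell with each treatment. It had 78.2 and 88.4 CPM in untreated cells, 66.0 and 63.2 with 5azadC, 64.8 and 62.5 with VX680, and 59.9 and 63.2 with both. The 6 treated libraries lay close together and below both untreated ones. Its log2 fold change was -0.36 ± 0.10 with 5azadC (adjusted p = 0.0113), -0.38 ± 0.10 with VX680 (adjusted p = 0.00702) and -0.43 ± 0.10 with both (adjusted p = 0.00276). Leaving out untreated replicate 2 gave adjusted p-values of 0.0800 for 5azadC and 0.0578 for VX680, and leaving out VX680 replicate 2 gave 0.0613 for VX680; the combined change passed in every setting tried.

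Trim28, the scaffold that joins KRAB zinc finger proteins to SETDB1 and HP1, fell with VX680 and with both drugs. Its level was 291.9 and 292.1 CPM in untreated cells, 267.3 and 261.3 with 5azadC, 233.8 and 232.3 with VX680, and 251.4 and 248.9 with both. The 4 groups did not overlap, and the VX680 libraries were the lowest. Its log2 fold change was -0.14 ± 0.08 with 5azadC (adjusted p = 0.174), -0.33 ± 0.08 with VX680 (adjusted p = 0.00499) and -0.22 ± 0.08 with both (adjusted p = 0.0317). The VX680 call held in all 13 other settings, whereas the combined call was lost in 9 of the 13, with an adjusted p of 0.229 on the authors' own normalized signal.

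Of Ehmt1 and Ehmt2, whose products work as a heterodimer, Ehmt1 fell with each treatment and Ehmt2 fell with 5azadC. Ehmt1 had 179.1 and 174.4 CPM in untreated cells, 146.0 and 127.7 with 5azadC, 127.0 and 140.9 with VX680, and 129.5 and 124.2 with both. All 6 treated libraries were below the untreated ones and overlapped each other. For Ehmt1 the log2 fold change was -0.37 ± 0.10 with 5azadC (adjusted p = 0.00798), -0.40 ± 0.10 with VX680 (adjusted p = 0.00409) and -0.48 ± 0.10 with both (adjusted p = 0.000946). Without VX680 replicate 1 the VX680 change had an adjusted p of 0.0714.

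Ehmt2 had 468.1 and 495.3 CPM in untreated cells, 367.1 and 371.8 with 5azadC, 416.2 and 588.0 with VX680, and 427.1 and 397.0 with both. The 5azadC libraries were the lowest, and the 2 VX680 libraries stood on either side of the untreated ones. Its log2 fold change with 5azadC was -0.38 ± 0.13 (adjusted p = 0.0270). The change was 0.06 ± 0.13 with VX680 (adjusted p = 0.733) and -0.22 ± 0.13 with both (adjusted p = 0.149). With 5azadC against VX680 the log2 fold change of Ehmt2 was -0.44 ± 0.13 (adjusted p = 0.0311), and this rested on VX680 replicate 2: without it the difference was -0.17 (adjusted p = 0.482). The fall with 5azadC had an adjusted p of 0.0592 without untreated replicate 1 and 0.113 without untreated replicate 2.

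Of the HP1 genes, Cbx1 fell with 5azadC, Cbx5 fell with both drugs, and Cbx3 was called in no comparison with untreated cells. Cbx1, which encodes HP1β, had 53.8 and 47.2 CPM in untreated cells, 37.3 and 39.8 with 5azadC, 44.7 and 52.2 with VX680, and 45.6 and 48.7 with both. Only the 5azadC libraries lay apart from the untreated ones, and the log2 fold change was -0.40 ± 0.12 with 5azadC (adjusted p = 0.0198), -0.07 ± 0.12 with VX680 (adjusted p = 0.673) and -0.10 ± 0.12 with both (adjusted p = 0.496). The 5azadC call was lost with DESeq2 (adjusted p = 0.0524), without untreated replicate 1 (0.141) and without 5azadC replicate 1 (0.0734).

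Cbx5, which encodes HP1α, had 256.5 and 233.8 CPM in untreated cells, 260.7 and 225.3 with 5azadC, 238.9 and 248.5 with VX680, and 210.8 and 194.2 with both. Single-drug libraries overlapped the untreated ones and the combined ones did not. The log2 fold change was -0.01 ± 0.10 with either drug alone (adjusted p = 0.932 for 5azadC and 0.943 for VX680) and -0.28 ± 0.10 with both (adjusted p = 0.0276). The combined call had an adjusted p of 0.176 on the authors' normalized signal, 0.142 without untreated replicate 1, and 0.0527 and 0.185 without the first or second combined library.

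Cbx3, which encodes HP1γ, was measured on 22 to 100 reads per library. Its CPM was 6.26 and 5.13 in untreated cells, 5.46 and 3.02 with 5azadC, 9.82 and 4.39 with VX680, and 10.1 and 5.80 with both. Each treated group overlapped the untreated one, while the combined libraries lay above both 5azadC libraries. No comparison with untreated cells passed: the log2 fold change was -0.42 ± 0.43, 0.33 ± 0.40 and 0.47 ± 0.40 (adjusted p = 0.460, 0.521 and 0.346). The libraries of a group differed, as with 100 and 33 reads with VX680. Its level is uncertain for another measured reason. In the GENCODE M21 transcripts, 21.1% of the 50-base windows of Cbx3 also occur in other genes, 13 in number. Reads from such windows can be split or discarded by a mapper. The annotation holds 8 pseudogenes named after Cbx3, and whether they are among the 13 was not checked. Setdb1 shared 6.46% of its windows with 1 other gene, Cbx5 and Atrx under 0.1%, and the other 6 genes none.

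Atrx fell with each treatment, and 5azadC gave the lowest library. It had 211.3 and 193.3 CPM in untreated cells, 140.0 and 115.5 with 5azadC, 137.8 and 154.7 with VX680, and 134.4 and 140.2 with both. No treated library reached the untreated ones, and the 3 treated groups overlapped. Against untreated cells its log2 fold change was -0.66 ± 0.11 with 5azadC (adjusted p = 0.000268), -0.47 ± 0.11 with VX680 (adjusted p = 0.00271) and -0.56 ± 0.11 with both (adjusted p = 0.000589). The VX680 change had an adjusted p of 0.0533 without VX680 replicate 1, while the other 2 passed in every setting tried.

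The treatments were also compared with each other. Adding VX680 to 5azadC called 0 of the 10 genes by edgeR, where 24.8% of all genes were called (9.98% higher, 14.8% lower). Of the 10 genes, 2, Cbx1 and Cbx5, had an unadjusted p under 0.05 by edgeR, as had at least the 24.8% of all genes called. DESeq2 also called 0, edgeR without the filter on low counts called Cbx3 and Cbx5, and limma on the authors' signal called Cbx1. The log2 fold changes of the 10 genes in this comparison ran from -0.26 (Cbx5) to 0.88 (Cbx3). Adding 5azadC to VX680 called 1 of 10, Suv39h2, where 6.5% of all genes were called (2.45% higher, 4.05% lower), and the count was 0 without either library of the VX680 or the combined group and 2 without either 5azadC library. Between the single drugs 2 of 10 were called, Suv39h2 and Ehmt2, where 15.8% of all genes were called (9.33% higher, 6.47% lower).

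The interaction asks whether the combined change on the log2 scale differs from the sum of the 2 single changes. It was called in 1 of the 10 genes, Atrx, where 15.6% of all genes were called (4.95% positive, 10.6% negative). The single log2 changes of Atrx summed to -1.13 and the combined change was -0.56 ± 0.11, a difference of 0.57 ± 0.15 (adjusted p = 0.0222). For Suv39h2 the sum was 1.88 and the combined change 1.33 ± 0.15, a difference of -0.55 ± 0.20 that did not pass (adjusted p = 0.0820). Setdb1 (0.31 ± 0.15, adjusted p = 0.170), Ehmt1 (0.29 ± 0.14, adjusted p = 0.183), Trim28 (0.25 ± 0.12, adjusted p = 0.174) and Cbx1 (0.36 ± 0.17, adjusted p = 0.191) had positive values that did not pass either. The Atrx interaction was lost without untreated replicate 1 (adjusted p = 0.0781), VX680 replicate 1 (0.135) or either combined library (0.0701 and 0.101).

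**Figure D3:**
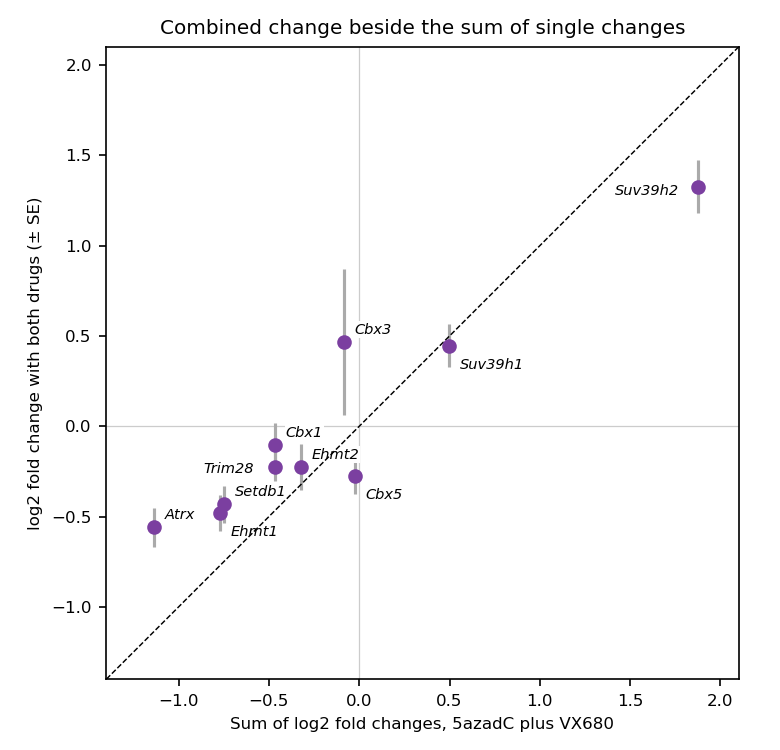
Combined change beside the sum of single changes. The x axis is the sum of the log2 fold changes with 5azadC and with VX680, the y axis is the log2 fold change with both drugs (± SE), each point is 1 gene and the dashed line marks equality. Atrx lies above the line (-1.13 against -0.56) and Suv39h2 below it (1.88 against 1.33), both nearer to 0 than the sum.

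The other genes of these pathways were taken from 6 lists, to be read against the 19.6%, 22.4% and 27.3% of all genes tested that fell with 5azadC, VX680 and both drugs. Among other H3K9 methyltransferases, 3 of 4 were tested and 2 of the 3 fell in each comparison with untreated cells (median log2 fold change -0.36 with 5azadC, -0.30 with VX680, -0.60 with both). Mecom fell with 5azadC (-0.59 ± 0.12, adjusted p = 0.00134) and both drugs (-0.82 ± 0.12, adjusted p = 6.13e-05), and had 0.04 ± 0.12 with VX680. Prdm2, which bears the SET-related PR domain, fell in all 3 comparisons (-0.36, -0.30 and -0.60), but with VX680 not on the authors' signal (adjusted p = 0.187). Setdb2 fell with VX680 (-0.79 ± 0.24, adjusted p = 0.0156). With VX680 the list had 0 falls on the authors' signal and 0 without untreated replicate 1 or either VX680 library, and with 5azadC it had 1 without untreated replicate 1.

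Among the 7 cofactors of Setdb1, which include the HUSH complex and KRAB zinc finger proteins, 0 rose and 2 fell in each comparison (medians -0.27, -0.22 and -0.08), but on the authors' signal 2 rose and 0 fell with VX680 and 0 fell with both. Morc2a, an ATPase that works with HUSH, fell in all 3 (-0.45, -0.36 and -0.33). Zfp57, which guards imprinted DNA methylation, fell with 5azadC (-0.86 ± 0.20, adjusted p = 0.00313) and with both drugs (-0.54 ± 0.19, adjusted p = 0.0295). Atf7ip, the partner that stabilises SETDB1, fell with VX680 (-0.39 ± 0.14, adjusted p = 0.0311). Of the 3 TIF1 relatives of Trim28, 0 rose and 1, 1 and 2 fell (medians -0.26, -0.42 and -0.30). Trim24 fell in all 3 comparisons (-0.49, -0.42 and -0.78) and Trim33 with both drugs (-0.30 ± 0.11, adjusted p = 0.0321). With both drugs, DESeq2 left neither Zfp57 (adjusted p = 0.0867) nor Trim33 (0.103) past the threshold. On the authors' signal Morc2a (0.0582 with VX680, 0.0776 with both) and Atf7ip (0.115 with VX680) were lost too. Cofactors that fell with VX680 numbered 0 without VX680 replicate 1 and 1 without VX680 replicate 2 or untreated replicate 2, and 1 rose without either 5azadC library. With both drugs 0 cofactors fell without combined replicate 2 and 1 without combined replicate 1 or either untreated library. The TIF1 count became 2 without 5azadC replicate 1 (with 5azadC) or either 5azadC library (with VX680), and 1 with both drugs without untreated replicate 1 or either combined library.

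The 3 partners of G9a and GLP gave 2, 3 and 2 falls and no rise (medians -0.34, -0.59 and -0.64). The zinc finger partners Zfp644 (-0.58, -0.53 and -0.64) and Wiz (-0.34, -0.59 and -0.68) fell in all 3 comparisons, and Cdyl, a chromodomain protein, fell with VX680 (-0.69 ± 0.16, adjusted p = 0.00248). With 5azadC the partners' count was 1 without untreated replicate 2 or 5azadC replicate 2, where Wiz was lost. Enzymes that remove the mark were listed too. Of 11 H3K9 demethylases listed, 10 were in the tables and 9 were tested, of which 5 fell with 5azadC, 7 with VX680 and 7 with both, and 0 rose (medians -0.39, -0.52 and -0.48). With both drugs 1 demethylase rose on the authors' signal, and without VX680 replicate 1 the falls with VX680 numbered 4. Kdm4b, which demethylates trimethylated H3K9, had 144.6 and 144.2 CPM in untreated cells, 79.3 and 86.4 with 5azadC, 78.8 and 76.6 with VX680, and 54.4 and 53.5 with both. Its combined libraries lay below all the others, with a log2 fold change of -0.80 ± 0.09 with 5azadC, -0.89 ± 0.09 with VX680 and -1.42 ± 0.10 with both (adjusted p = 1.47e-05, 4.56e-06 and 4.76e-08). Phf2 fell in all 3 comparisons (-0.38, -0.70 and -0.78), though its 5azadC change had an adjusted p of 0.214 without untreated replicate 2. Kdm4a fell with VX680 (-0.56) and with both (-0.57), and had -0.08 ± 0.09 with 5azadC (adjusted p = 0.511).

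Of 16 HP1 and ATRX partners and heterochromatin maintenance genes, 2 rose and 10 fell with 5azadC, 1 rose and 9 fell with VX680, and 1 rose and 9 fell with both (medians -0.41, -0.31 and -0.33). The steepest fall was that of Suv420h2, which writes the H4K20 trimethylation found beside H3K9 methylation at pericentric repeats. It had 36.4 and 42.5 CPM in untreated cells, 10.8 and 17.0 with 5azadC, 14.4 and 16.1 with VX680, and 13.5 and 11.9 with both, so that all 6 treated libraries lay far below the untreated ones. The log2 fold change was -1.51 ± 0.20, -1.37 ± 0.20 and -1.63 ± 0.21 (adjusted p = 5.57e-05, 8.9e-05 and 1.63e-05). Its paralogue Suv420h1 (-0.57, -0.66 and -0.89) and Pogz, an HP1-binding zinc finger protein (-0.47, -0.85 and -1.08), fell in all 3 comparisons. The genes that rose, named after their values were seen, were Lbr, the lamin B receptor that binds HP1 at the nuclear envelope, in all 3 (0.25, 0.36 and 0.42), and Daxx, the partner of ATRX, with 5azadC (0.59 ± 0.16, adjusted p = 0.0104). The Daxx libraries with 5azadC had 99.5 and 63.4 CPM, against 52.4 and 56.7 in untreated cells, and the adjusted p was 0.18 without 5azadC replicate 1 and 0.0986 without untreated replicate 1. The 5azadC call of Lbr was lost in 11 of 13 other settings, among them DESeq2 (adjusted p = 0.0888), and its VX680 call without VX680 replicate 2 (0.0772).

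**Figure D4:**
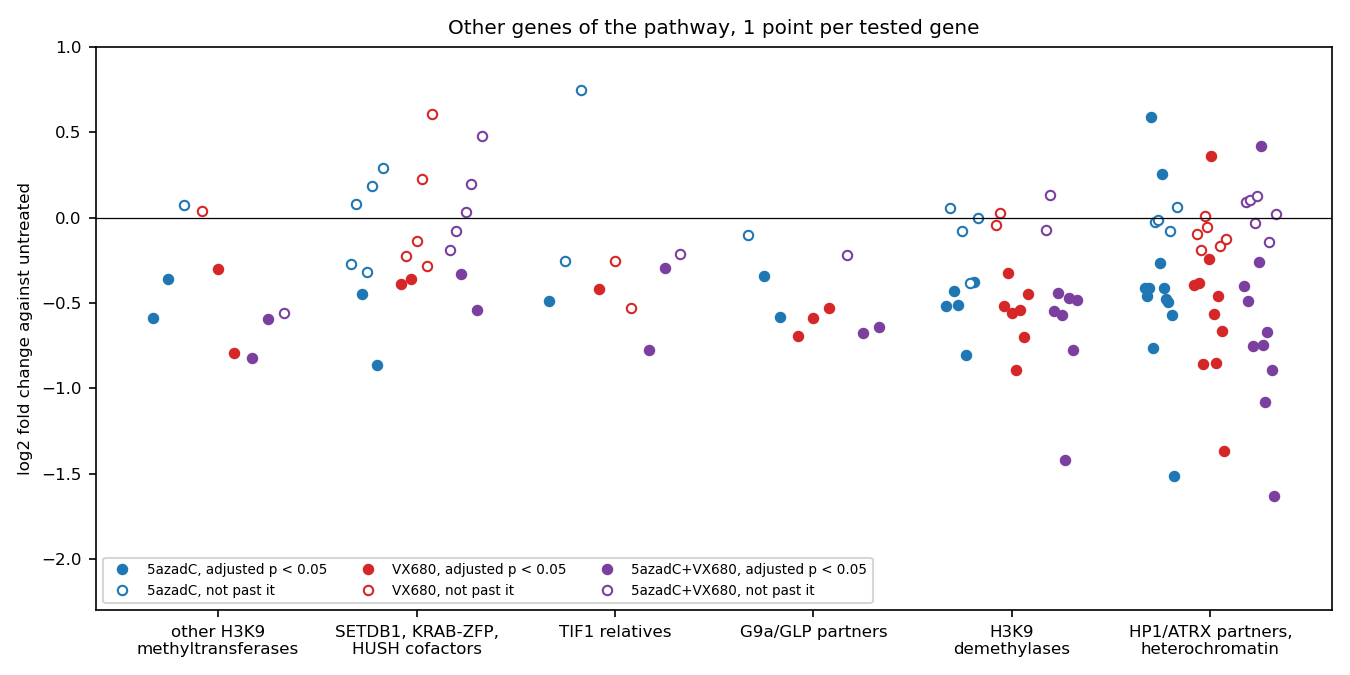
Change of the listed pathway genes. The y axis is the log2 fold change against untreated cells, each point is a tested gene of 1 of the 6 lists in 1 of the 3 comparisons, filled where the adjusted p is under 0.05 and open where it is not. Most points lie below 0 in every list, and Suv420h2 is the lowest (-1.51, -1.37 and -1.63).

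The allelic counts show from which parental copy each gene was read. Pooled over the 8 libraries, the mus share was 57.3% of 705 allelic reads for Setdb1, 33.8% of 4391 for Trim28, 60.5% of 200 for Suv39h2, 57.5% of 1769 for Ehmt1, 57.2% of 2979 for Ehmt2, 70.4% of 253 for Cbx1, 43.9% of 123 for Cbx3 and 50.4% of 4120 for Cbx5. In untreated cells the mus to cas ratio departed from 1 in 3 of the 9 genes tested, where 38.2% of all genes tested were called. Trim28 was read more from the cas allele (log2 ratio -0.86 ± 0.13, adjusted p = 3.35e-07), and its mus share lay between 29.0% and 37.4% in all 8 libraries. Ehmt1 was read more from the mus allele (0.48 ± 0.19, adjusted p = 0.0349), with 52.4% to 61.9% in the 8 libraries. This call for Ehmt1 was lost in 4 of the other settings. Neither ratio says whether the alleles differ in expression or in how well their reads map.

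Atrx and Suv39h1 lie on the X chromosome, and both were read almost wholly from the cas copy. Atrx had 6 mus and 614 cas reads in untreated cells, 0 and 312 with 5azadC, 4 and 412 with VX680, and 4 and 361 with both. Over all libraries 14 of 1713 reads were mus, a share of 0.817% (exact Clopper-Pearson 95% interval 0.448% to 1.37%, counting error only). The 0 of 312 reads with 5azadC allow a share of up to 1.18% by the same interval. The measured share was 0.968% in untreated cells (0.356% to 2.09%), 0.962% with VX680 and 1.10% with both. Suv39h1 had 0 mus reads of 77 in all, which allows a share of up to 4.68% by this interval, and its mean of 9.62 allelic reads per library kept it out of the test. For comparison, the mus share pooled over 277 X-linked genes, Atrx among them and Xist left out, was 4.01% and 4.05% in untreated libraries, 5.26% and 4.89% with 5azadC, 4.84% and 4.96% with VX680, and 5.74% and 5.80% with both. Atrx therefore stayed below that pooled share in all 8 libraries, its highest library having 1.83%. The pooled share weights each gene by its reads, and Atrx was not compared with single X-linked genes, so its place among them is not known. In untreated cells its log2 mus to cas ratio was -6.61 ± 0.36 (adjusted p = 8.29e-20).

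For a change of the allelic ratio by edgeR, 0 of 9 genes were called with 5azadC, VX680, both drugs, or both against 5azadC, where 0.282%, 0.379%, 0.515% and 0.136% of all genes were called. An unadjusted p under 0.05 was seen in 2, 1, 0 and 2 of the 9 genes, beside 684, 652, 822 and 634 of all 10301 genes tested.

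**Figure D5:**
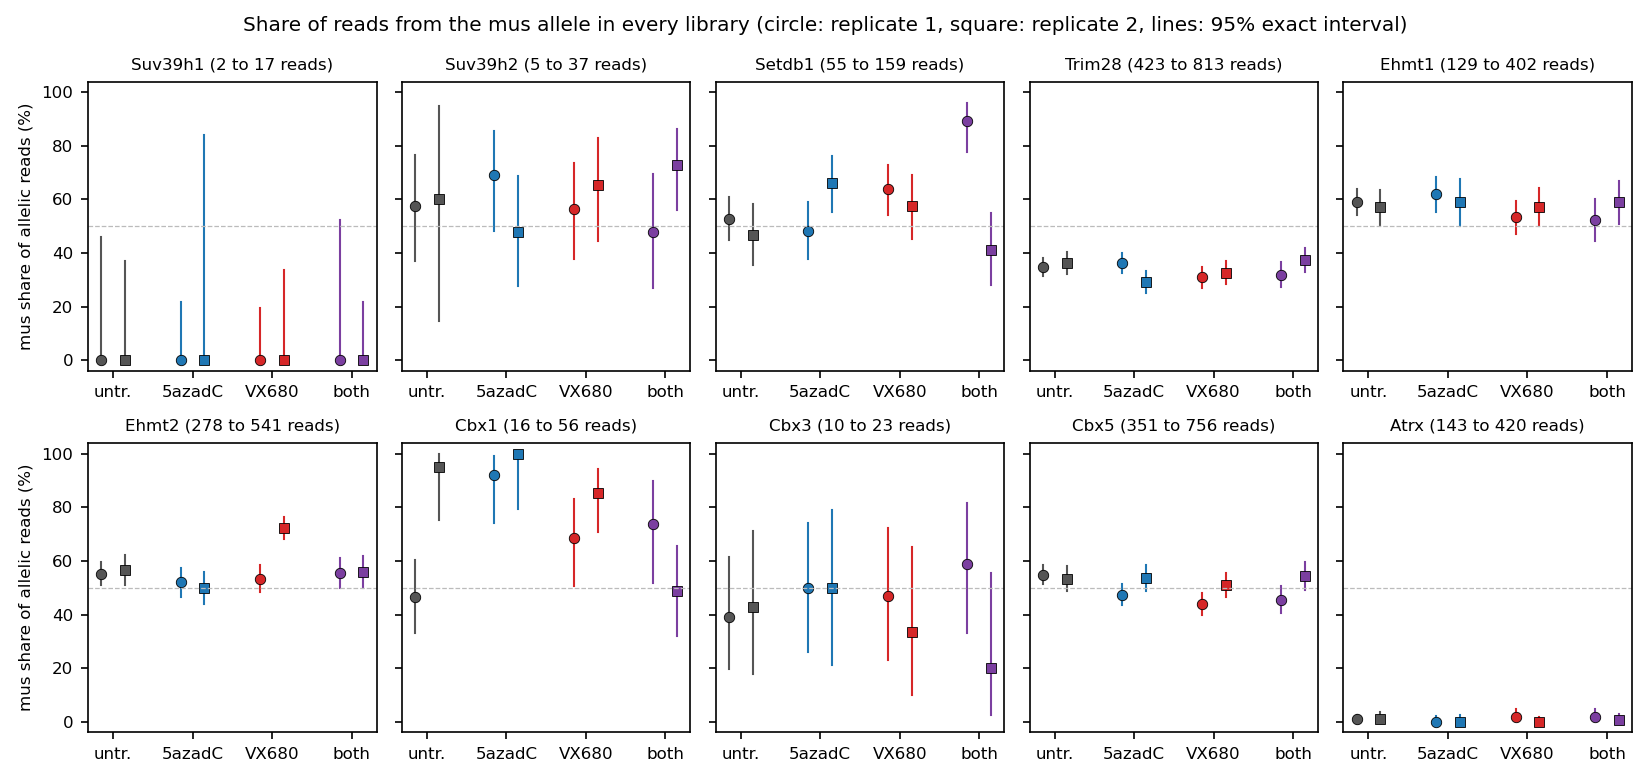
Share of mus reads of each gene in each library. Each panel is 1 gene, the y axis is the mus share of allelic reads in percent, points are libraries by group and bars are exact 95% intervals. Atrx and Suv39h1 lie at or near 0, Trim28 lies between 29.0% and 37.4%, and single libraries of Setdb1, Ehmt2 and Cbx1 stand apart from their partner library.

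In 3 genes the mus share differed between the 2 libraries of a group by more than counting error (Fisher's exact test, adjusted over all genes). For Ehmt2 it was 53.3% and 72.4% with VX680 (adjusted p = 4.07e-06), and the library with the higher share, replicate 2, was also the one with 588.0 CPM. For Setdb1 it was 89.1% of 55 reads and 41.1% of 56 with both drugs (adjusted p = 8.2e-05). For Cbx1 it was 46.4% of 56 reads and 19 of 20 reads in untreated cells (adjusted p = 0.0142). Over all genes such a split was called in 1.81% with untreated cells and 5azadC, 1.21% with VX680 and 1.16% with both.

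Across the 8 libraries each gene's log2 CPM was compared with that of 9720 other genes, as a description of libraries that share their groups. The most similar profile to Suv39h2 was that of Atp1b1 (Pearson r = 0.992), followed by Agps (0.988). Ehmt1 was closest to Cdk5rap2 (0.989) and Scaf11 (0.988), Setdb1 to Rab43 (0.987) and Osbpl1a (0.984), and Atrx to Scrn2 (0.986) and Wrn (0.983). Trim28 was closest to Smo (0.981) and Rxrb (0.977), Suv39h1 to Taf7 (0.980) and Nrn1 (0.978), and Cbx1 to Mdh1 (0.988) and G2e3 (0.954). The closest r was lower for Cbx5 (Dip2b, 0.943), Ehmt2 (Rint1, 0.941) and Cbx3 (Ddhd1, 0.922). Among the members themselves, r was 0.916 between Ehmt1 and Atrx, 0.890 between Ehmt1 and Setdb1, and -0.882 between Suv39h2 and Atrx.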

How the data were processed

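Total RNA of 8 libraries in 4 groups was analysed. Per the labels' protocols, RNA was extracted with Trizol and libraries were strand-marked with dUTP. Per the submitters' processing notes, the build was mm9 and the tools included TopHat2 2.0.10, HOMER 4.8 and edgeR; their roles are not given in the sources used here. The authors deposited raw counts per gene, both alleles together, raw counts per mus or cas allele, and a normalized signal equal to the counts times 1 factor per library. The authors' tables of differential expression were not used.

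Counts were tested with edgeR 4.0.16 (R 4.3.3): filterByExpr (12643 genes), TMM, 1 mean per group over all 8 libraries, quasi-likelihood F tests across all genes, Benjamini-Hochberg adjusted p under 0.05. CPM uses TMM-scaled totals, RPKM also the deposited gene length. For the allelic counts the model had 1 coefficient for each library and 1 for the mus allele in each group, over the 10301 genes averaging 10 or more allelic reads per library. Alternatives were DESeq2 1.42.0, RLE scaling, no filter, limma 3.58.1 on the log2 signal (pseudocount 1), a minimum of 30 allelic reads, limma on the log2 allelic ratio, a replicate block, and leaving out each library. Fits were tested on simulated data, where the allelic counts had counting error only and no mus share was set as low as that of Atrx. The simulation thus does not cover the wider spread of allelic shares seen between some libraries. An Ensembl annotation of another build served only for shared windows, so no coordinates are given.

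The 10 genes and the lists were chosen with earlier results of these data known. Of each list, up to 3 genes were named, those past the threshold in any comparison with untreated cells with the smallest p with both drugs; for likeness, the 2 genes with the highest r and a mean log2 CPM of at least 3. Intervals, and the upper limits taken from them for a count of 0, cover counting error only.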

Additional observations from a re-analysis of the deposited data

Results flagged for a closer look

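The interaction of 5azadC and VX680 in Atrx was 0.57 ± 0.15 on the log2 scale (edgeR, adjusted p = 0.0222): by this test the effect of VX680 in cells given 5azadC differed from its effect in cells without it. The call was lost without untreated replicate 1 (0.53), VX680 replicate 1 (0.49), or combined replicate 1 (0.60) or 2 (0.54). VX680 alone lowered Atrx by a log2 fold change of -0.47, and adding it to 5azadC gave 0.10 ± 0.11 (adjusted p = 0.537).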

How the results depend on the processing

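With 2 libraries per group, single libraries set many calls. Against untreated cells the calls of Suv39h2, Ehmt1 and Atrx with 5azadC, Trim28 and Suv39h2 with VX680, and Setdb1, Suv39h1, Suv39h2, Ehmt1 and Atrx with both drugs held in all 13 alternatives. Near 0, uncalled values changed sign: without the filter on low counts Cbx5 was 0.0021 with 5azadC, and on the authors' signal Cbx1 was 0.046 with VX680 and 0.0073 with both, and Cbx5 0.10 with VX680; the authors' signal uses other library factors. No shared effect of the replicate number was seen: replicate differences of any 2 groups correlated at -0.0622 to 0.0326. The labels do not say what a replicate number shares, so common handling cannot be told from these values. A replicate block removed the combined call of Trim28 (adjusted p = 0.0512), the 5azadC call of Lbr (0.0611) and the mus to cas call of Ehmt1 in untreated cells (0.0940), and no other call printed here.

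Leaving out 1 library at a time gave, with 5azadC, -0.12 to 0.072 for Cbx5. With VX680 it gave -0.21 to 0.29 for Ehmt2, -0.18 to 0.041 for Cbx1, -0.39 to 0.77 for Cbx3, -0.085 to 0.043 for Cbx5 and -0.065 to 0.13 for Mecom, and 3 to 5 of the 10 genes called. For both drugs against 5azadC it gave -0.023 to 0.24 for Atrx, 0 to 1 of the 10 genes and 1629 to 3179 genes called in all (3139 with all libraries). For both against VX680 it gave 0 to 2 of the 10 and 114 to 1566 genes in all (822 with all libraries). For 5azadC against VX680 it gave 0 to 3 of the 10 and 801 to 2482 in all (1998), and for the interaction 0 to 1 of the 10 and 948 to 2721 in all (1967). Allelic calls over all genes ranged from 18 to 36 with 5azadC, 17 to 46 with VX680 and 23 to 63 with both, where 0 to 1 of the members, Setdb1 without combined replicate 2 (adjusted p = 0.0302), was called. Without the filter, both drugs against 5azadC called 2 of the 10 genes, and both against VX680 2 of the 10 and 1299 in all; on the authors' signal both against 5azadC called 1 of the 10. Limma on the log2 allelic ratio called 6, 4 and 19 genes with 5azadC, VX680 and both, and 0 for both against 5azadC. The share of higher genes among those called moved with the authors' signal from 40.2% to 58.9% (both against 5azadC) and from 59.1% to 37.3% (5azadC against VX680), and for both against VX680 from 37.7% to 25.4% and 22.7% without VX680 replicate 1 or 2. Where not stated, the cause was not tested. Few reads lie behind Cbx3 and the allelic shares of Suv39h1, Cbx1 and Suv39h2.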
